A study of Mus musculus with 11 samples.

Results

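The genes of MHC class I antigen presentation were described in CD31hi EMCNhi endothelial cells (ECs), which were sorted from mouse bone marrow by high levels of CD31 and endomucin. The members were taken by gene symbol from the deposited count table and are H2-K1, H2-D1, B2m, Tap1, Tap2, Tapbp, Psmb8, Psmb9, Psmb10 and Nlrc5, which are 10 of its 27179 gene rows. All 10 passed the filter on low counts and were among the 11948 genes tested. Cells were sorted from BALB/c mice aged 8 to 10 weeks into 3 groups, with 11 libraries in all. The control group (n = 2) came from healthy mice without a tumour, the met group (n = 3) from marrow infiltrated by RFP-labelled 4T1.2 mammary tumour cells and the non-met group (n = 6) from adjacent tumour-free marrow of the same tumour-burdened mice. Every library came from a pool of 1 to 4 mice, and the 9 libraries of tumour-burdened mice came from only 4 pools, so that non-met 1 and 5 shared a pool, as did non-met 2 and 6 with met 1, non-met 3 with met 2, and non-met 4 with met 3. Cells bearing CD45 or TER-119 were gated out in the sort, a single tumour line was used, and met areas were chosen by RFP signal rather than by any property of the vessels.

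MHC class I molecules display short peptides from inside the cell to CD8 T cells. The proteasome cuts the peptides, the TAP transporter carries them into the endoplasmic reticulum, and tapasin helps load them onto a heavy chain paired with β2-microglobulin. Interferons raise many of these genes, among them 3 catalytic subunits that replace those of the constitutive proteasome to form the immunoproteasome, and NLRC5 is a transcriptional activator of the class I genes. Endothelium is known to display class I constitutively.

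BALB/c mice carry the H-2d haplotype, whereas reads were aligned to mm10, the C57BL/6 genome, which carries H-2b. The reads counted for H2-K1 and H2-D1 therefore come from alleles that differ from the reference, and some may have been lost or counted for a related class I gene. This applied to all 11 libraries alike, and its effect on the level of either gene was not tested. Whether the counts of H2-Q4, H2-Q2 and H2-T23, given below, were affected in the same way was not tested either. In the mm10 transcripts themselves, 6.15% of the 75-base stretches of H2-D1 and 1.12% of those of H2-K1 occur word for word in another gene, as do 1.36% of those of Tapbp, against 0% for the other 7 members. Whether counting used strand is not given in the sources used here. Some GENCODE M21 transcripts of Tap1 and Psmb9 overlap on opposite strands, but the spans of the 2 genes in the count table, given below, do not. Exons of Tap2, Tapbp, Psmb8 and Nlrc5 also overlap other genes on the opposite strand in GENCODE M21, and those of Tapbp overlap Zbtb22 on the same strand. The effect of these overlaps on the counts was not tested.

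Total counts ran from 5029771 to 19539761 in the controls, from 733342 to 7683451 in the non-met libraries and from 2547520 to 8771860 in the met libraries. All 15 endothelial markers checked had reads in every group, and their summed level was 10842 to 15947 counts per 1000000 (CPM) in control, 11873 to 21171 in non-met and 17662 to 21202 in met libraries. Summed over 12 granulocyte markers, the level was 80.2 to 388 CPM in control, 398 to 5262 in non-met and 35.4 to 203 in met libraries, so every non-met library lay above every met library although the sort removed CD45+ cells. The 12 markers shared by all leukocytes gave 36.1 to 114, 25.8 to 587 and 2.64 to 40.7 CPM in the same order, with Ptprc, which encodes CD45, at 12.5 CPM in control 1, 38.8 CPM in met 2 and 0 in the other 9 libraries. Summed over 11 markers of stromal cells, the level was 4115 to 10943 CPM in control, 1224 to 3885 in non-met and 547 to 3062 in met libraries, so both controls lay above every library of tumour-burdened mice. This order rested on Cxcl12, at 3224 and 8721 CPM in the controls, and without it the groups overlapped (891 to 2222, 293 to 1281 and 321 to 1261 CPM). The 12 markers of monocytes and macrophages summed to 999 to 1562 CPM in control, 459 to 1398 in non-met and 354 to 877 in met libraries, with at least 93.0% of the sum in the controls from Mrc1. Without Mrc1 the controls had 35.8 and 69.9 CPM, the non-met libraries 15.9 to 503 and the met libraries 47.6 to 51.6. The 7 markers of megakaryocytes and platelets summed to 0 to 31.3, 0 to 57.8 and 42.6 to 123 CPM in the same order, and without Itga2b to 12.7 to 23.3 CPM in met. The 13 markers of mammary tumour epithelium summed to 1.12 to 34.3 CPM in control, 1.62 to 170 in non-met and 12.4 to 123 in met libraries. Of the 4 interferon genes listed, Ifng and Ifnb1 had 0 reads in all 11 libraries, Ifnl2 had 132 reads in 1 library and Ifnl3 had 2 reads in 1.

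Levels of different genes were compared per length, as RPKM, which are CPM divided by gene length in kilobases. B2m, the light chain, was highest, at 1856 ± 542 RPKM (SD, n = 11), above H2-K1 in 11 of 11 libraries. The heavy chains H2-K1 (567.6 ± 156 RPKM) and H2-D1 (541 ± 223 RPKM) were not ordered beyond their spread, with H2-K1 the higher in 7 of 11. Both heavy chains belonged to a much higher tier than the loading factor Tapbp (99.2 ± 39.9 RPKM), which lay below H2-D1 in 11 of 11 libraries. Tap2, Psmb9, Tap1, Psmb8 and Psmb10 followed at mean levels of 64.9 down to 45.7 RPKM, and no neighbouring pair in this order was separated in more than 7 of 11 libraries. Nlrc5 was lowest, at 5.73 ± 6.83 RPKM, and lay below Psmb10 in 10 of 11 libraries. The plot of all libraries shows the same genes by group.

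**Figure D1:**
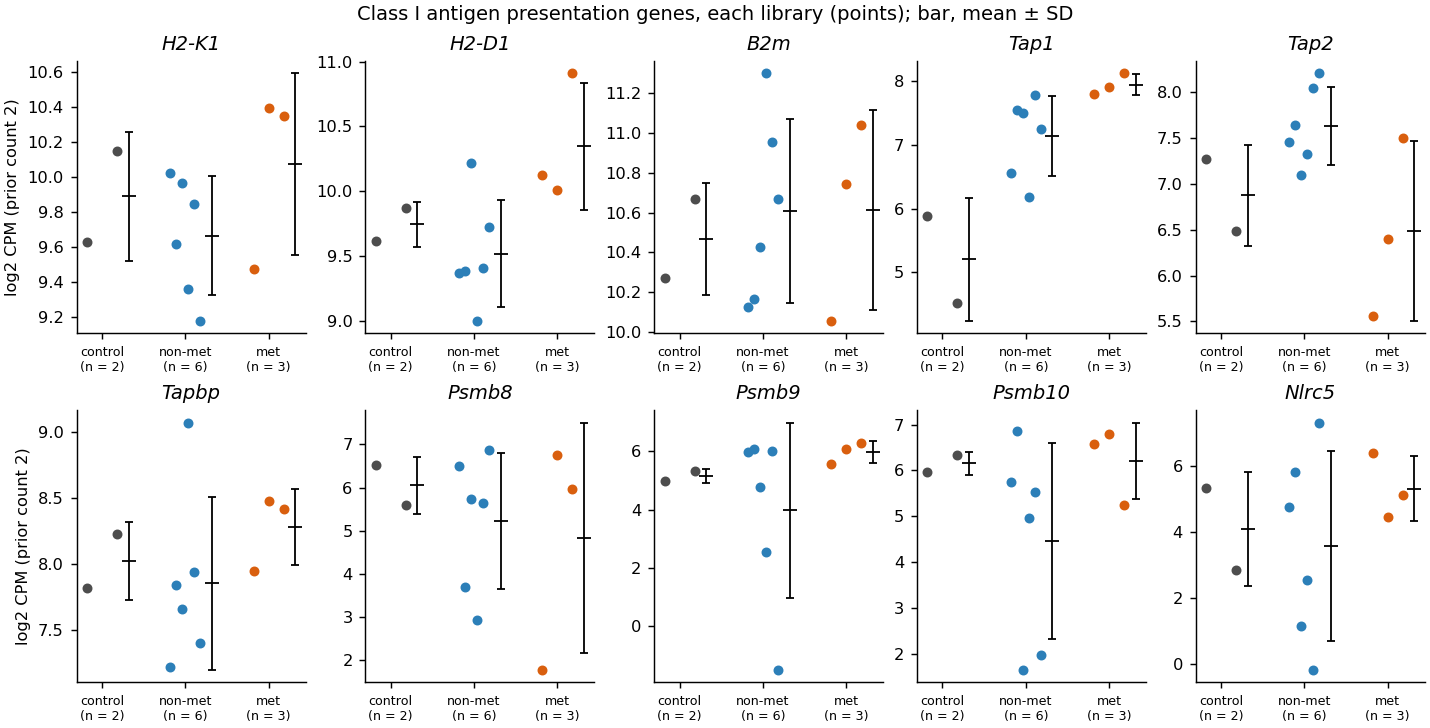
Level of each member in each library, as log2 CPM with a prior count of 2 (vertical axis, different in each panel), for the control (n = 2), non-met (n = 6) and met (n = 3) groups; points are libraries and the bar is the mean ± SD. The groups overlapped for most members. The 3 met libraries of Tap1 sit above all others, between 222 and 278 CPM, and the non-met libraries of Psmb9, Psmb10 and Nlrc5 spread most widely.

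The genes lie on 3 chromosomes of the mm10 genome. H2-K1 (chr17:33996012-34000619), H2-D1 (chr17:35263094-35267497), Tap1 (chr17:34187556-34197225), Tap2 (chr17:34204479-34216321), Tapbp (chr17:33919478-33929290), Psmb8 (chr17:34198195-34201454) and Psmb9 (chr17:34182030-34187330) lie in the MHC on chromosome 17. B2m lies at chr2:122147687-122153082, and Psmb10 (chr8:105935728-105938392) and Nlrc5 (chr8:94434335-94527272) lie apart from each other on chromosome 8. The start sites of Psmb9 and Tap1 are 226 bases apart and point away from each other.

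Promoter windows from 250 bases before to 50 bases after the start were taken from RefSeq (GRCm38.p6), which gave one for 8 of the 10 members. The stretches below are shown for the 3 genes that the main test called in a met comparison, 5′ to 3′ on the strand of the gene, with matches to the searched motifs in capitals.

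H2-K1: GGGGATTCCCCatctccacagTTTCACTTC

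H2-D1: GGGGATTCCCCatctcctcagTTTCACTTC

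B2m: tGAAACTGAAAatGGGAAAGTCCCtttgta

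They lie at chr17:34000429-34000458 on the minus strand, chr17:35262923-35262952 on the plus strand and chr2:122147547-122147576 on the plus strand (positions -111 to -82, -171 to -142 and -140 to -111 from the start). The RefSeq start of H2-K1 lies inside the gene span given above, so its stretch does too. The stretches of the H2-K1 and H2-D1 promoters were identical at 29 of 30 bases. Both hold an NF-kB-like motif (GGG, any 5 bases, CCC) followed, on the opposite strand, by a class I interferon motif (GAA, any 2 bases, GAAA). The printed B2m stretch holds an interferon-stimulated response motif (GAAA, any 2 bases, GAAA) before an NF-kB-like motif, and another NF-kB-like motif of the B2m window lies outside the stretch, at position -187. On both strands of all 32851 windows, the NF-kB-like motif occurred in 14.0%, the class I interferon motif in 7.52% and the interferon-stimulated response motif in 3.44%. Among the 8 members with a window, the NF-kB-like motif occurred in B2m, H2-K1, H2-D1, Psmb9 and Tap1, the class I interferon motif in H2-K1 and H2-D1, and the interferon-stimulated response motif in B2m alone. A gamma-activated motif (TTC, any 3 bases, GAA), in 8.3% of all windows, occurred in Psmb8, and the Y box letters CCAAT, in 37.4%, in 6 of the 8. The windows of Psmb9 and Tap1 overlap, so that their NF-kB-like matches are the same 11 bases (chr17:34187480-34187490) and a CCAAT match at chr17:34187334-34187338 also counts for both. The printed matches do not overlap each other, and a match of letters is not evidence of binding.

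The first comparison asked whether class I genes differed between ECs of met and non-met areas within tumour-burdened bones. H2-D1, B2m and Tap1 gave different pictures. H2-D1 was 1.79-fold higher in met libraries by mean CPM, B2m was at the same mean level, and Tap1 was 1.64-fold higher with no overlap of the groups. Measured with voomLmFit, which weights libraries by precision, 2 of 10 members were called higher in met (H2-D1 and B2m) and 0 lower, where 0.418% of all genes tested were called in either direction. Only edgeR's voomLmFit made these calls, since edgeR's quasi-likelihood test, limma-trend and DESeq2 each called 0 members at an adjusted P under 0.05 and had 1 of 10, H2-D1, at an unadjusted P under 0.05. These tools called 0.142%, 0.0167% and 3.23% of all genes, and had 8.39%, 4.7% and 11.2% at an unadjusted P under 0.05. With the mouse pool as a fixed replicate block, voomLmFit called 0 of 10 and 0.285% of all genes. In bulk RNA from sorted cells, fewer cells of a type and less RNA per cell cannot be told apart. The granulocyte marker sum given above was lower in every met library than in every non-met library, with 9 of 12 markers called lower by DESeq2 and 0 by voomLmFit, which had 9 at an unadjusted P under 0.05. DESeq2 also called lower 4 of 8 leukocyte markers and 2 of 5 monocyte and macrophage markers tested, Adgre1 and Lyz2. VoomLmFit called 0 of these. Of the 15 endothelial markers, voomLmFit called 5 higher in met, Pecam1, Cdh5, Eng, Tie1 and Ptprb, with log2 fold changes of 0.56 to 1.14, and DESeq2 called 0 with 0 at an unadjusted P under 0.05. The part of these markers in the differences was not tested.

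H2-K1 encodes one of the classical heavy chains. Its level was 792 and 1136 CPM in the controls, 580.3 to 1039.9 CPM with a median of 853 over the non-met group, and 712, 1348 and 1305 CPM in the met libraries. Met 2 and met 3 lay above every other library, while met 1 lay below both controls, so all groups overlapped. The log2 fold change met over non-met was 0.58 ± 0.21 (SE) with an adjusted P of 0.502 by voomLmFit. Within the pools shared by met and non-met areas, pools 2, 3 and 4, met minus the mean of non-met was 0.08, 0.43 and 0.99 log2 CPM. Pool 2 has 2 non-met libraries, and met 1 lay below non-met 2 (786 CPM) and above non-met 6 (580.3 CPM).

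H2-D1 encodes the other classical heavy chain measured. The controls had 785 and 933 CPM, the non-met libraries 512 to 1190.0 CPM with a median of 674, and the met libraries 1113, 1027 and 1923 CPM. All met libraries exceeded both controls, and only non-met 3 reached into the met range. VoomLmFit gave a log2 fold change of 1.24 ± 0.28 (SE) over non-met, with an adjusted P of 0.0437. Leaving out 1 library at a time ended this call for non-met 1, 2, 5 or 6 and for met 1 or 3, with adjusted P values of 0.149, 0.372, 0.143, 0.0839, 0.0751 and 0.461 in that order. Without met 3, the highest library, the log2 fold change was 0.53. Within pools, H2-D1 was higher in met in pools 2 and 4 (0.57 and 1.91 log2 CPM) and lower in pool 3 (-0.21). The fit with the pool as a fixed replicate block gave 0.33 ± 0.30 (SE), with an adjusted P of 1.00.

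B2m encodes β2-microglobulin, the light chain without which heavy chains do not reach the cell surface stably. Its level was 1234 and 1626 CPM in the controls, 1117 to 2518 CPM with a median of 1503 over the non-met group, and 1066, 1715 and 2101 CPM in the met libraries. Met 1 was the lowest of all 11 libraries and non-met 4 the highest, and the group means of met and non-met were the same to within their spread (1627 ± 523 and 1629 ± 542 CPM, SD). VoomLmFit nonetheless called B2m higher in met than in non-met, by 0.80 ± 0.10 on the log2 scale, with an adjusted P of 2.2e-05. The unweighted difference of mean log2 CPM was 0.006, the quasi-likelihood test gave -0.0008 and DESeq2 gave -0.20. Within pools the differences were -0.36, 0.32 and -0.26 log2 CPM, and the fixed replicate block gave 0.13 ± 0.19 (SE).

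The precision weight was spread unevenly over libraries, and a large share did not go with a high sample weight in the controls. The sample weight that the fit gave each library was lowest for control 1, at 0.43 against 1.69 for control 2. For B2m, non-met 2 carried 66.6% of the weight of the non-met mean, met 3 carried 86.9% of that of the met mean and control 1 carried 99.7% of that of the control mean. The matching shares for H2-D1 were 47.1%, 80.6% and 99.3%, with a further 27.6% of the non-met weight on non-met 1. For H2-K1, H2-D1 and B2m the control and met means thus rested mainly on 1 library each, as the plot of weights shows, whereas for Tap1 the controls carried 49.9% and 50.1%. Without met 3 the B2m call in met over non-met was also lost, at a log2 fold change of 0.44 and an adjusted P of 0.689.

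**Figure D2:**
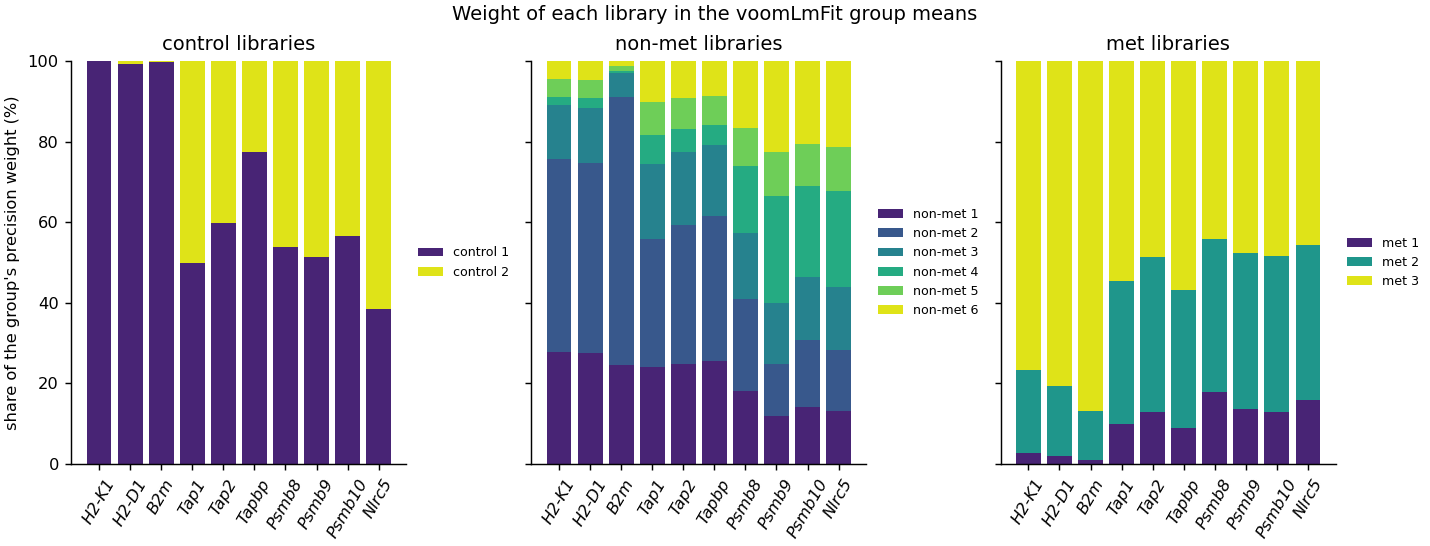
Share of each library in the precision weight of its group mean (vertical axis, %), for each member (horizontal axis) in the control, non-met and met groups; colours are libraries. For H2-K1, H2-D1 and B2m over 99% of the control weight rests on control 1 and over 76% of the met weight on met 3.

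Tap1 and Tap2 encode the paired subunits of the peptide transporter. Tap1 had 58.7 and 22.6 CPM in the controls, 72.3 to 219 CPM with a median of 166 over the non-met group, and 222, 241 and 278 CPM in the met libraries. No group overlapped another, with both controls lowest and all met libraries highest, although met 1 exceeded the highest non-met library by only about 3 CPM. Tap1 was the only member of the 10 to lie higher in met than in non-met without overlap, against 1.54% of all genes tested, and it was 1 of 5 genes (0.0418%) that stepped up from control to non-met to met in this way. The separation of met from non-met was lost when libraries were scaled by library size or by median of ratios, and by library size H2-D1 was instead the member that separated (1020.3 to 1968 CPM in met and 449 to 998 CPM in non-met), while that of both tumour-burdened groups from control held under all 3 scalings. By voomLmFit, the log2 fold change met over non-met was 0.82 ± 0.57 (SE), with an adjusted P of 0.770. In each of the 3 shared pools Tap1 was higher in met, by 0.40, 0.42 and 1.94 log2 CPM.

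Tap2 moved the other way in group means. Its level was 153 and 89.2 CPM in the controls, 137 to 293 CPM with a median of 186 over the non-met group, and 46.7, 84.1 and 181 CPM in the met libraries. Met 1 and met 2 lay below every other library, and met 3 lay within the non-met range. Its log2 fold change over non-met was -0.73 ± 0.75 (SE) by voomLmFit, with an adjusted P of 0.847. Tap2 was lower in met in pools 2 and 3 (-2.36 and -0.70 log2 CPM) and higher in pool 4 (0.18).

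Because a ratio within a library does not depend on its scaling, the reads of Tap1 were set over those of Tap2. This ratio was chosen after the values of both genes had been seen, so it is given as a description with no test. On the log2 scale it was -1.38 and -1.97 in the controls, -1.13 to 0.40 with a median of -0.58 over the non-met group, and 2.24, 1.52 and 0.62 in the met libraries. Tap1 reads exceeded Tap2 reads in all 3 met libraries, in 1 of 6 non-met libraries and in neither control, and no group overlapped another. The means were 1.46 ± 0.81 (SD, n = 3) in met, -0.49 ± 0.60 (SD, n = 6) in non-met and -1.68 ± 0.42 (SD, n = 2) in control. Met differed from non-met by 1.95 log2 units, and by 1.55 to 2.37 when any 1 library was left out.

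**Figure D3:**
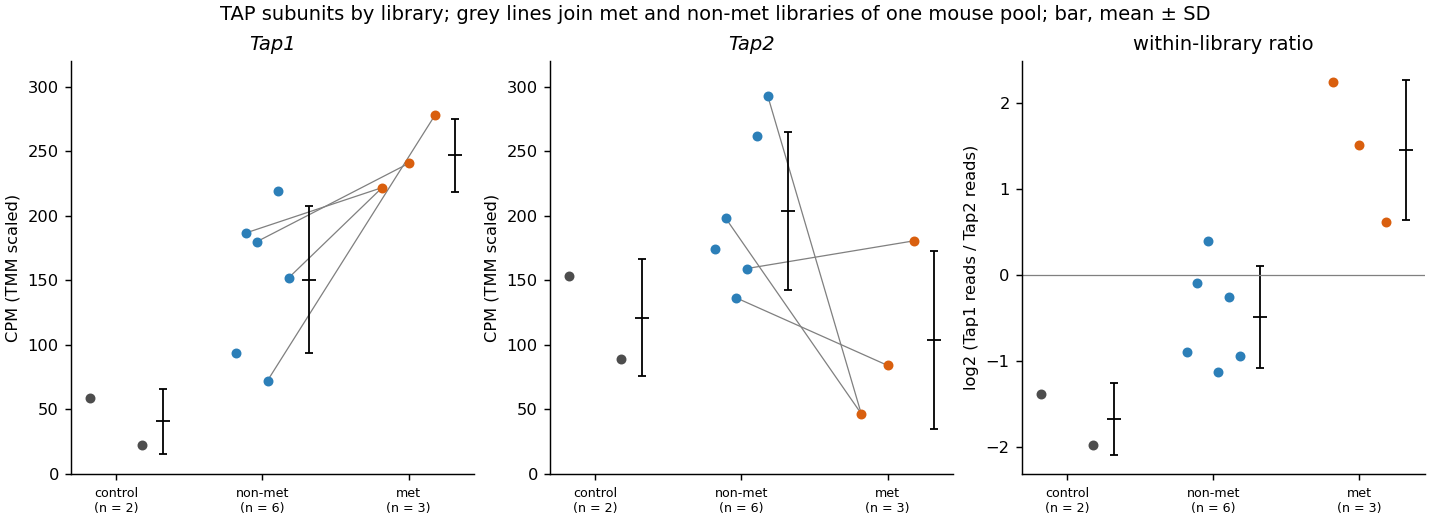
Tap1 and Tap2 in CPM (left and middle) and the log2 ratio of their reads (right) in each library by group; grey lines join libraries of one mouse pool and the bar is the mean ± SD. Tap1 rises along every line, Tap2 falls along 3 of the 4 lines, and the ratio is 0.62 to 2.24 in met against -1.97 to -1.38 in control.

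Tapbp encodes tapasin, which holds the heavy chain at the transporter during loading. The controls had 225 and 300.3 CPM, the non-met libraries 148 to 539 CPM with a median of 215, and the met libraries 247, 356 and 342 CPM. Non-met 4, the library with the fewest counts, was the highest of all, and the other groups lay inside the non-met range. Tapbp had a log2 fold change over non-met of 0.72 ± 0.41 (SE) by voomLmFit, with an adjusted P of 0.744. Its sign differed between pools, with 0.33, 0.82 and -0.66 log2 CPM in pools 2, 3 and 4.

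Psmb8, Psmb9 and Psmb10 encode the catalytic subunits of the immunoproteasome. They have lower counts than the heavy chains and varied more between libraries, with SDs of 1.58, 3.01 and 2.14 log2 CPM over the 6 non-met libraries against 0.34 for H2-K1 and 0.41 for H2-D1. Among all genes tested, 24.8%, 61.5% and 33.8% had a smaller SD in these libraries than Psmb8, Psmb9 and Psmb10. Among the 500 genes of most similar level to each, the shares with a smaller SD were 15.6%, 55.2% and 31.6%, against 8.4% for H2-K1, 18.8% for H2-D1 and 26.2% for B2m. No immunoproteasome subunit was called in any comparison by any of the 4 tools.

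Psmb8 encodes the chymotrypsin-like subunit β5i. The controls had 90.9 and 47.8 CPM, the non-met libraries 7.23 to 117 CPM with a median of 51.4, and the met libraries 3.08, 108 and 61.7 CPM. Met 1 was the lowest of all libraries, on 7 reads, which bound its level between 1.24 and 6.35 CPM by an exact 95% Poisson interval for counting error only. It lay below both non-met libraries of its own pool, of which non-met 6 had the highest level of all libraries. Within pools 2, 3 and 4 met minus non-met was -3.51, 1.03 and 3.03 log2 CPM. VoomLmFit gave a log2 fold change over non-met of 0.37 ± 1.51 (SE), with an adjusted P of 0.977.

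Psmb9 encodes the subunit β1i. It had 31.5 and 39.5 CPM in the controls, from 0 to 68.1 CPM with a median of 44.6 over the non-met group, and 47.1, 66.5 and 78.6 CPM in the met libraries. Non-met 6 had 0 reads, which allows a level of up to 3.28 CPM by an exact 95% Poisson interval for counting error only. Non-met 4 had 3 reads, whereas all met libraries exceeded both controls. The log2 fold change met over non-met was 2.78 ± 1.43 (SE), with an adjusted P of 0.730 by voomLmFit, and the fitted size depends on how the library at 0 is handled. The quasi-likelihood test gave 0.76 and DESeq2 0.60, and voomLmFit gave 1.18 without non-met 6, the lowest value with any 1 library left out, and at most 3.31. Within pools 2, 3 and 4 met minus non-met was 3.26, 1.29 and 3.77 log2 CPM, but in pool 2 the mean includes non-met 6 at 0 reads, and met 1 lay below non-met 2 (68.1 CPM).

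Psmb10 encodes the subunit β2i. Its level was 62.5 and 80.2 CPM in the controls, 2.80 to 116 CPM with a median of 38.4 over the non-met group, and 94.7, 111 and 37.6 CPM in the met libraries. Non-met 3 and non-met 6 fell to 9 and 4 reads, and the groups overlapped throughout. Its log2 fold change over non-met was 1.71 ± 1.28 (SE), with an adjusted P of 0.788 by voomLmFit. The quasi-likelihood test gave 0.94 and DESeq2 0.80, and leaving out 1 library at a time gave 1.07 (without non-met 3) to 2.38 (without met 3). Met exceeded the non-met mean by 2.16, 5.14 and 0.29 log2 CPM in pools 2, 3 and 4, although in pool 2 met 1 lay below non-met 2 (116 CPM) and above only non-met 6.

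With the non-met libraries of a pool averaged, H2-K1, Tap1, Psmb9 and Psmb10 were the 4 members higher in met in all 3 shared pools, against 10.6% of all genes tested. With each non-met library of the pool taken alone, a rule added after seeing the data, it was 1 member, Tap1, against 7.6% of all genes. By the averages no member was lower in all 3, against 8.86% of all genes.

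Each immunoproteasome subunit was then set over the constitutive subunit it replaces, as a log2 ratio of reads within a library. Psmb8 over Psmb5 was 3.03 ± 4.89 (SD, n = 3) in met, 1.77 ± 3.11 (SD, n = 6) in non-met and 7.63 ± 2.04 (SD, n = 2) in control. Psmb5 itself was sparse, at 0 reads in control 2 and non-met 5. Psmb9 over Psmb6 was -0.65 ± 0.55 in met, -1.87 ± 3.75 in non-met and -0.71 ± 1.32 in control (SD). Psmb10 over Psmb7 was -0.41 ± 0.68 in met, -0.77 ± 3.05 in non-met and -0.61 ± 0.54 in control (SD). The groups overlapped for all 3 ratios in all 3 comparisons. In exact two-sided permutation tests the lowest P of the 9 was 0.0714, for Psmb8 over Psmb5 in non-met against control, with an adjusted value of 0.643. These tests permuted single libraries and ignored the shared mouse pools. The smallest P they allow is 0.0119 for met against non-met, 0.1 for met against control and 0.0357 for non-met against control. Met against control could thus not reach 0.05.

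**Figure D4:**
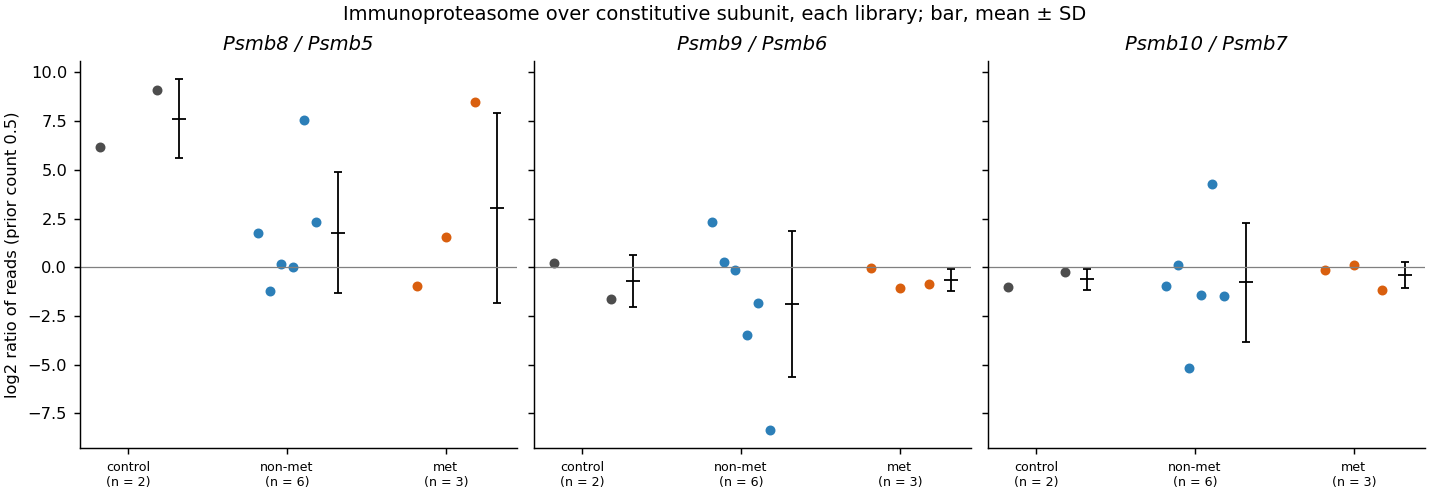
Log2 ratio of reads of each immunoproteasome subunit over its constitutive counterpart (vertical axis, prior count 0.5) in each library by group; points are libraries and the bar is the mean ± SD. The 3 groups overlap in each panel, and the non-met libraries range from -8.37 to 2.33 for Psmb9 over Psmb6.

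Nlrc5 was detected in every library but at few reads in several. The controls had 39.7 and 6.90 CPM, the non-met libraries 0.53 to 160 CPM with a median of 16.1, and the met libraries 84.1, 21.4 and 34.4 CPM. Non-met 3, 4 and 5 had 6, 3 and 1 reads, while non-met 6 held the highest level of all libraries. All 3 met values lay inside the non-met range. The log2 fold change met over non-met was 1.23 ± 1.57 (SE), with an adjusted P of 0.897 by voomLmFit. It was 0.16 by the quasi-likelihood test and -0.023 by DESeq2, and 0.66 (without non-met 3) to 2.41 (without non-met 6) with 1 library left out. Nlrc5 had the second widest spread of the members over the non-met libraries, at an SD of 2.88 log2 CPM.

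The second comparison set met ECs against ECs of healthy bones. H2-K1, H2-D1 and B2m were called higher in met by voomLmFit, 3 of 10 members against 1.2% of all genes tested, and 0 were called lower. The log2 fold changes were 0.71 ± 0.09 (SE) for H2-K1, with an adjusted P of 3.2e-05, 1.12 ± 0.09 for H2-D1 and 0.72 ± 0.06 for B2m, the latter pair with an adjusted P of 1.2e-08. These fits rest on control 1 as described above, and their unweighted counterparts were 0.18, 0.60 and 0.14. Without control 1, or without met 3, none of the 3 was called. With 1 control left out the control group is a single library, which the fit assumes to vary like the other groups. Their adjusted P values were then 0.548, 0.167 and 0.0950 without control 1, and 0.347, 0.189 and 0.537 without met 3. H2-K1 was also lost without met 2, with an adjusted P of 0.127. EdgeR's quasi-likelihood test and limma-trend called 0 of 10, each with 1 member, Tap1, at an unadjusted P under 0.05, where they called 0.0837% and 0.0753% of all genes and had 4.62% and 4.96% at an unadjusted P under 0.05.

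By mean CPM, Tap1 had the largest fold difference of the 10 members in this comparison. It was 6.07-fold higher in met than in control, and 5.46-fold to 6.07-fold over the 3 scalings. DESeq2 called it at a log2 fold change of 2.55 ± 0.77 (SE) with an adjusted P of 0.0439, the only member DESeq2 called where it called 2.26% of all genes, whereas voomLmFit gave 2.82 ± 1.06 (SE) with an adjusted P of 0.185. The voomLmFit value was 3.51 without control 1 and 2.14 without control 2, the highest and lowest with any 1 library left out. Of the marker sums given above, those of stromal cells and of monocytes and macrophages were lower in every met library than in both controls. Without Cxcl12 and Mrc1, respectively, these sums overlapped. Lepr, Col1a2 and Pdgfrb of the stromal list and Lyz2 of the macrophage list were also each lower in every met library. Of 10 stromal markers tested, 8 had a lower unweighted mean in met and 2 a higher one. Of 6 monocyte and macrophage markers tested, 3 were lower and 2 higher. The sums of endothelium and of megakaryocytes and platelets were higher in every met library than in both controls. VoomLmFit called 6 of 15 endothelial markers (5 higher and Kdr lower), whereas quasi-likelihood, limma-trend and DESeq2 called 0. Mean Kdr was 1649 CPM in met and 1618 CPM in control. Itga2b, a megakaryocyte marker, was also called by voomLmFit and was at 0 in both controls. Of 7 mammary tumour markers tested, 6 were higher in every met library than in both controls, where 8.43% of all genes were. None of the 4 tools called any of the 7. Krt8, for example, had 0.24 to 0.35 CPM in control, 0.18 to 36.1 in non-met and 4.82 to 32.6 in met libraries. The part of all these markers in the differences from control was not tested. H2-D1, Tap1 and Psmb9 were the 3 of 10 members whose met libraries all exceeded both controls, against 8.43% of all genes tested. For Psmb9 and H2-D1 this separation was lost when libraries were scaled by library size alone, for H2-D1 also by median of ratios, and Psmb9 was 1.81-fold higher by mean CPM. The other log2 fold changes by voomLmFit were -0.12 ± 0.80 for Tap2, 0.49 ± 0.32 for Tapbp, -0.58 ± 1.42 for Psmb8, -0.11 ± 0.94 for Psmb10 and 1.28 ± 2.03 for Nlrc5 (SE).

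The third comparison set non-met ECs against the same controls. VoomLmFit and edgeR's quasi-likelihood test called 0 of 10 members and had 0 at an unadjusted P under 0.05, where they called 0.636% and 0.117% of all genes tested and had 17.0% and 4.31% at an unadjusted P under 0.05. DESeq2 and limma-trend also called 0, each with 1 member, Tap1, at an unadjusted P under 0.05, where they called 2.61% and 0.067% and had 7.64% and 4.47% at an unadjusted P under 0.05. Tap1 was 3.70-fold higher in non-met by mean CPM and was the only member whose non-met libraries all exceeded both controls, against 1.26% of all genes. Its log2 fold change was 2.00 ± 1.11 (SE), with an adjusted P of 0.348 by voomLmFit. Without control 1 it was 2.69 and without control 2 it was 1.32, the extremes over all libraries left out. Cxcl12, Lepr and Mrc1 were lower and the granulocyte marker sum higher in every non-met library than in both controls. Ltf, Prtn3 and Retnlg were at 0 in both controls. DESeq2 called 3 of 12 granulocyte and 2 of 8 leukocyte markers tested higher in non-met, and voomLmFit called 0 of either list. VoomLmFit called 1 of 15 endothelial markers, lower in non-met. The part of these markers was not tested here either. H2-K1, H2-D1 and B2m had log2 fold changes of 0.13 ± 0.19, -0.12 ± 0.26 and -0.08 ± 0.08 (SE). Without control 1, which leaves control 2 as the single control library, B2m alone was called, lower in non-met, at -0.49 with an adjusted P of 0.0140. Both comparisons with healthy bones share the same 2 control libraries, so their values are not independent.

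**Figure D5:**
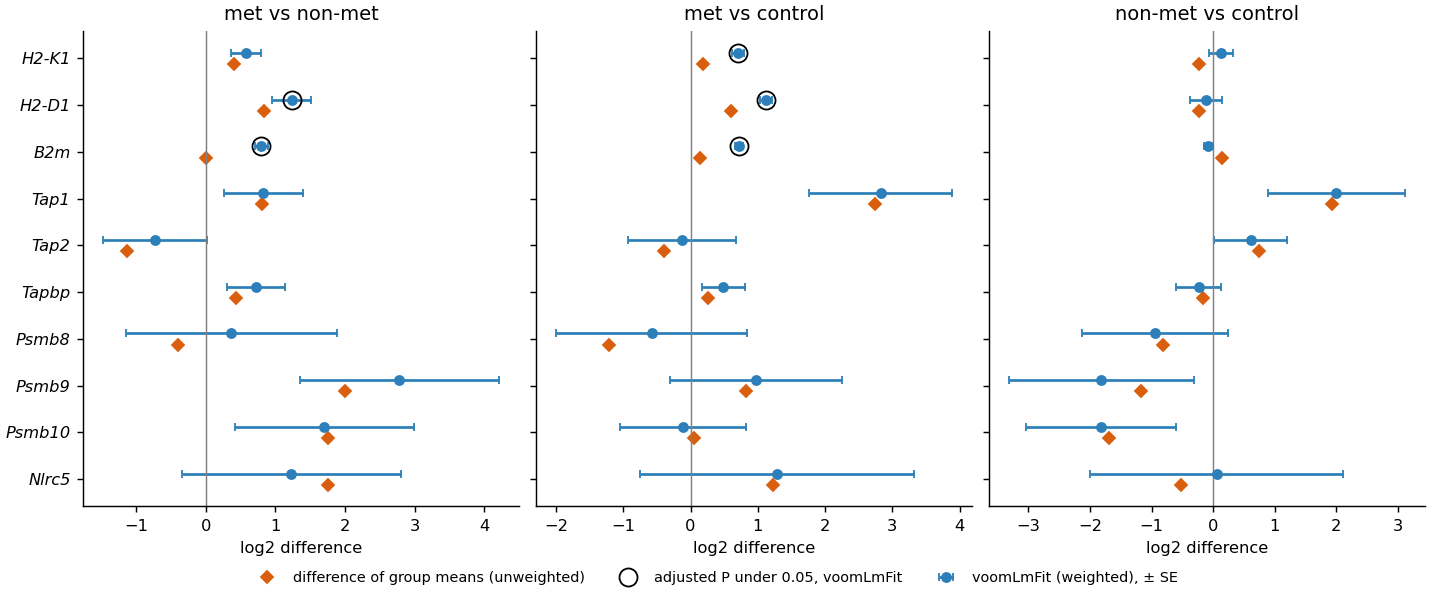
Log2 difference of each member in the 3 comparisons (horizontal axis), as fitted by voomLmFit with its SE (circles) and as the unweighted difference of group means (diamonds); open rings mark an adjusted P under 0.05. For B2m in met against non-met the weighted value is 0.80 and the unweighted value is 0.006.

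As a group, 8 of 10 members had a higher unweighted mean in met than in non-met, where 56.0% of all genes tested did, and their median difference was 0.62 log2 CPM against 0.26 over all genes. Against control, 8 of 10 were higher in met (40.3% of all genes), with a median of 0.22 against -0.35. In non-met against control 3 of 10 were higher (32.4% of all genes), with a median of -0.23 against -0.79. Over the 11 libraries the 45 pairs of members had a median Pearson r of 0.03 in log2 CPM, from -0.44 for B2m and Nlrc5 to 0.72 for B2m and Tapbp, with 25 pairs above 0. These libraries share pools and differ in depth, so the correlations are descriptions only.

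Genes outside the members that followed the mean standardised level of the members most closely were Siah1b, H2-DMb1, Hoxb9, Zfp398, Hc, Prox1, Kmo and Snord22, with Pearson r from 0.95 down to 0.91 over 11 libraries. All were sparse, with mean levels of 1.13 to 7.66 CPM. Among the members themselves, H2-K1 was closest to this mean at 0.76 and Nlrc5 farthest at -0.01.

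Other genes of the pathway were read from lists of the same kind. Of 24 other class I heavy chains and related molecules, 19 were tested, and voomLmFit called 0 in met against non-met, with 2 at an unadjusted P under 0.05 (7.24% of all genes tested), and 1 in met against control, where 1.2% of all genes were called. That gene was H2-Q4, a non-classical heavy chain, which had 404 and 590.1 CPM in control, 215 to 752 CPM in non-met and 598, 705 and 784 CPM in met. Its log2 fold change over control was 0.85 ± 0.15 (SE), with an adjusted P of 0.0022, and quasi-likelihood gave an adjusted P of 1.0. H2-Q4 and Mr1 were the 2 at an unadjusted P under 0.05 over non-met, with log2 fold changes of 0.71 ± 0.31 and -5.81 ± 2.02 (SE) by voomLmFit and an adjusted P of 0.634 for H2-Q4. H2-T23, which encodes Qa-1, had 126 and 166 CPM in control and 349, 222 and 364 CPM in met, and its adjusted P was 0.223 by voomLmFit. H2-Q2 had a log2 fold change of 2.23 ± 1.16 (SE) over non-met, with an adjusted P of 0.732 by voomLmFit. Mr1, which presents vitamin metabolites, had 19.7 and 27.1 CPM in control, 0 to 47.2 CPM in non-met and at most 0.2 CPM in met. DESeq2 called Mr1 lower in met in both comparisons, whereas voomLmFit gave adjusted P values of 0.434 over non-met and 0.0821 over control.

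Of 12 genes for peptide trimming and loading, voomLmFit called 0 in met against non-met, with 3 at an unadjusted P under 0.05, and 1 in met against control, beside the same shares of all genes. Pdia3, the disulfide isomerase of the loading complex, had 608 and 855 CPM in control, 414 to 935 CPM in non-met and 885, 952 and 1142 CPM in met. Its log2 fold change over control was 0.83 ± 0.10 (SE), with an adjusted P of 1.1e-05, and over non-met it was 0.94 ± 0.23 (SE), with an adjusted P of 0.0759. The other 2 at an unadjusted P under 0.05 over non-met were Calr, the chaperone calreticulin, at -0.86 ± 0.37 (SE) with an adjusted P of 0.624, and Lap3, a cytosolic aminopeptidase, at 4.31 ± 1.99 (SE) with an adjusted P of 0.670. Lap3 was sparse, with medians of 0.76 CPM in non-met and 44.7 CPM in met. Quasi-likelihood, limma-trend and DESeq2 called 0 of these 12 in any comparison. Erap1, which trims peptides in the endoplasmic reticulum, had a log2 fold change of 1.07 ± 0.74 (SE) over non-met.

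None of the 4 proteasome activator genes, the 15 genes of the constitutive 20S proteasome, one of which, Pomp, is an assembly chaperone, or the 20 regulators of class I genes was called by any of the 4 tools in any comparison, with the limit that DESeq2 tested 18 of the 20 regulators. At an unadjusted P under 0.05, voomLmFit gave 0, 0 and 1 of them in met against non-met, the last being Nfyb, a subunit of the Y box binding factor NF-Y, at 4.78 ± 1.63 (SE) with an adjusted P of 0.411 and 0 reads in 4 of 6 non-met libraries. The unweighted mean was higher in met than in non-met for 4 of 4 activators, 10 of 15 20S genes and 15 of 20 regulators, where 56.0% of all genes were higher. Psme1 and Psme2, the interferon-inducible pair, had log2 fold changes of 0.73 ± 0.65 and 1.90 ± 1.37 (SE) over non-met by voomLmFit. The activators Psme3 and Psme4 gave 2.67 ± 1.33 and 2.24 ± 1.13 (SE). The 20S genes with the smallest adjusted P, Psma4, Psma1 and Psmb6, gave 1.85 ± 1.01, 2.05 ± 1.27 and 1.40 ± 1.00 (SE), with adjusted P values of 0.735 to 0.780. Psme2 had 18.5 and 16.3 CPM in control and 49.3, 44.5 and 35.2 CPM in met. Psme2 and Psme1 were above both controls in every met library, as were 8.43% of all genes tested. Of the regulators, 2 were higher and 2 lower in every met library than in both controls. The 2 lower were Ifngr1 (213 and 317 CPM in control, 106 to 160 CPM in met) and Creb1. Irf1, an interferon-induced transcription factor of class I promoters, had 168 and 129 CPM in control, 76.0 to 292 CPM in non-met and 318, 292 and 267 CPM in met, with a log2 fold change of 0.62 ± 0.52 (SE) over non-met. Irf9, another transcription factor of interferon signalling, had 37.5 and 123 CPM in control, 32.6 to 232 CPM in non-met and 103, 1.52 and 63.0 CPM in met, with a log2 fold change of -2.88 ± 1.70 (SE) and an adjusted P of 0.750. Jak1, a kinase of interferon receptors, gave 0.22 ± 0.16 (SE), with an adjusted P of 0.789.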

How the data were processed

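RNA of sorted CD31hi EMCNhi ECs was made into libraries with the SMART-Seq v4 low input kit and sequenced as 75-base read pairs. The authors aligned reads to mm10 with Rsubread and deposited raw counts per Entrez gene from featureCounts. The 11 single-library tables were identical to the table of the whole series. Symbols came from RefSeq GRCm38.p6 (25275 rows) and GENCODE M21 (18 rows). Unnamed, predicted and ribosomal RNA rows were left out, which removed 1.95% to 15.7% of the counts of a library, and 23461 rows remained. The study left out ribosomal and predicted genes, contigs without assembly and outdated gene identifiers. Whether these are the same rows was not tested.

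Groups and mouse pools were taken from the labels. The main test, following the study, was voomLmFit with sample weights in edgeR 4.0.16, after filterByExpr and TMM scaling, with all 11 libraries in one model of 3 groups, contrasts in limma 3.58.1 and Benjamini-Hochberg adjustment over 11948 genes at 0.05. CPM used TMM-scaled library sizes, and log2 CPM a prior count of 2. RPKM used the gene lengths of the deposited table. The ratios of subunits used a prior count of 0.5 and exact permutation tests, with adjustment over 9 tests. Alternatives were edgeR's quasi-likelihood test, limma-trend, DESeq2 1.42.0, no sample weights, 2 other scalings, 2 other filters, all rows kept, the mouse pool as a fixed or random block, summing libraries that share a pool and group, only the groups compared, and each library left out. Tests were checked on simulated data. Low-read values carry counting error, for which exact Poisson intervals at 95% were computed, and PCR duplicates are not independent molecules.

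All 10 members, and the genes, lists and tests, were chosen with earlier results of these data known. All members are named. Of other lists, preset genes are named plus the 3 of each list with the smallest adjusted P in met against non-met, apart from 1 result that is not reported here, and the 8 genes most correlated with the members. Met and non-met libraries were paired by mouse pool, as the labels give it, not by replicate number. Replicates of one pool were treated as separate samples, so P values may be too small.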

Additional observations from a re-analysis of the deposited data

How the results depend on the processing

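Precision was limited by 2 control and 3 met libraries, by depth from 733342 counts, and by low reads for the immunoproteasome subunits and Nlrc5. In met against non-met, where 2 members were called, the count was 0 by edgeR's quasi-likelihood test, DESeq2, limma-trend and with libraries of one pool summed, 1 with RLE scaling or all rows kept, and 0 to 2 with a library left out. With the mouse pool as a fixed replicate block it was 0, and as a random replicate block 2, with 3 in met against control. In met against control, where 3 were called, the count was 0 by quasi-likelihood, limma-trend and with only these groups in the fit, 1 by DESeq2, and 0 to 3 with a library left out. In non-met against control it was 0 to 1 with a library left out. Apart from settings with fewer libraries, the cause was not tested.

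Log2 fold changes that changed sign were as follows. In met against non-met, B2m was -0.00082 by quasi-likelihood and -0.20 by DESeq2, Nlrc5 was -0.023 by DESeq2, and Psmb8 was -0.14 by DESeq2, -0.40 by limma-trend and -1.72 to 1.21 with a library left out. In met against control, Psmb10 was 0.19 by quasi-likelihood, 0.094 by DESeq2, 0.053 by limma-trend and -0.46 to 0.59 with a library left out, where Tap2 was -0.94 to 0.35, Psmb8 -2.66 to 0.26 and Nlrc5 -0.26 to 2.24. In non-met against control, H2-K1 was -0.21 by quasi-likelihood, -0.17 by DESeq2, -0.22 by limma-trend, -0.054 by library size and -0.39 to 0.25 with a library left out. B2m was 0.19, 0.28 and 0.14 by the same tools and 0.13 with pools summed, Tapbp was 0.038 by DESeq2, and Psmb9 was 0.10 by quasi-likelihood and 0.14 by DESeq2. Nlrc5 was -0.52 by limma-trend, -1.03 without sample weights, -0.23 by library size, -0.022 with no filter, -0.055 with a mean of at least 5 CPM, -0.18 with pools summed, -0.051 with only these groups and -1.48 to 1.03 with a library left out.

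Psmb8 over Psmb5 in non-met against control was -5.17 with a prior count of 2 (exact permutation P = 0.0357) and -7.31 to -4.42 with a library left out, and in met against non-met -1.47 to 3.25. Psmb9 over Psmb6 was -0.080 to 2.06, -0.88 to 1.00 and -2.10 to 0.14 in met against non-met, met against control and non-met against control. Psmb10 over Psmb7 was -0.52 to 1.38, -0.18 to 0.59 and -1.17 to 0.72. Relative to TMM under the same test, library size moved the median over all genes from 0.07 to 0.14 in met against non-met and from -0.33 to -0.54 in non-met against control. The share of all calls that were higher was 66.0%, 57.3% and 28.9% in met against non-met, met against control and non-met against control. It was 73.8%, 46.3% and 13.8% by library size, 53.3%, 54.6% and 39.7% by RLE scaling and 6.44%, 60.1% and 98.5% by DESeq2.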
